A study of Homo sapiens with 65 samples.

Results

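The genes described here encode the regulated thin filament of the heart muscle sarcomere: 3 kinds of troponin (TNNT2, TNNT1, TNNI1, TNNI3 and TNNC1), tropomyosin (TPM1) and the sarcomeric actins (ACTC1 and ACTA1). The 8 genes were listed by name as members of these families, and all 8 were found among the 58735 genes of the count table. They were followed in 16 groups of left-ventricular cardioids, which are heart-like aggregates grown from WTC-11, an established human induced pluripotent stem cell line. The study asked what hyaluronan, a sugar polymer of the extracellular matrix, contributes to the forming heart tissue. HAS2, a hyaluronan synthase, was knocked out, or hyaluronidase (HAse), which digests the polymer, was added.

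In the genotype arm (41 libraries), wild-type cardioids (WT) were set against HAS2 knockout cardioids (KO) at day 1.5 (5 WT and 6 KO libraries), day 2.5 (6 and 6), day 4.5 (6 and 6) and day 7.5 (3 and 3) of differentiation. The KO libraries came from clones cl4, cl14, cl46 and cl51, and the WT libraries from lines labelled WT, WT_TU, cl43_WT_UT and TNT2. In the enzyme arm (24 libraries), untreated cardioids of WT genotype were set against cardioids of the same genotype given HAse until collection. The enzyme was started at day 1.5 in the groups called HAse1.5 here, collected at day 2.5, 4.5 or 7.5, and at day 2.5 in those called HAse2.5, collected at day 4.5 or 7.5. Each of these 8 groups holds 3 libraries, 1 from each of the lines labelled TNNI1, WT and TNNT2. The labels do not say what was done to the lines that carry the names of troponin genes, so both genes are examined line by line below. Each library pooled RNA of 8 cardioids.

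Muscle contracts when myosin heads pull on actin filaments. At rest tropomyosin lies along the actin filament and covers the myosin-binding sites. Calcium binding to troponin C releases the hold of the inhibitory subunit troponin I, and troponin T, which anchors the complex to tropomyosin, passes the movement on. The fetal heart uses the slow skeletal troponin I (TNNI1), which is replaced by cardiac TNNI3 around and after birth. TNNT2 is the cardiac and TNNT1 the slow skeletal troponin T, TNNC1 the troponin C shared by heart and slow muscle, ACTC1 the cardiac and ACTA1 the skeletal α-actin.

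On GRCh38 the genes fall into pairs and single loci. TNNT2 (ENSG00000118194, chromosome 1, 201359008 to 201377762) neighbours TNNI1 (ENSG00000159173, chromosome 1, 201403768 to 201429866). TNNT1 (ENSG00000105048, chromosome 19, 55132794 to 55149354) neighbours TNNI3 (ENSG00000129991, chromosome 19, 55151767 to 55157773). TNNC1 (ENSG00000114854) lies on chromosome 3 from 52451102 to 52454070. ACTC1 (ENSG00000159251, 34788095 to 34795726) and TPM1 (ENSG00000140416, 63042632 to 63071915) are both on chromosome 15, and ACTA1 (ENSG00000143632) is on chromosome 1 from 229431245 to 229434098. TPM1 is on the plus strand and the other 7 genes are on the minus strand.

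RefSeq promoter windows on GRCh38.p14 (250 bases before and 50 after a start) were found for 6 of the 8 genes, TNNI1 and TNNC1 having no entry. They were searched on both strands for the CArG box (bound by SRF), the MEF2 box (bound by MEF2 factors), the MCAT element CATTCC (bound by TEAD factors) and the TATA sequence TATAAA. Of all 35116 windows, 1.29% hold a CArG box, 2.99% a MEF2 box, 14% an MCAT element and 11.5% a TATA sequence. The windows of the troponin T pair and of the actin pair are shown because, within each pair, the genes followed different courses in these cardioids. They are written 5′ to 3′ on the gene's strand, with motif matches in capitals. The TNNT2 window is chr1:201377631-201377930 (minus), TNNT1 chr19:55149157-55149456 (minus), ACTC1 chr15:34795500-34795799 (minus) and ACTA1 chr1:229434045-229434344 (minus). ACTC1 has 3 listed starts, and 1 of the windows not shown holds an MCAT element.
TNNT2: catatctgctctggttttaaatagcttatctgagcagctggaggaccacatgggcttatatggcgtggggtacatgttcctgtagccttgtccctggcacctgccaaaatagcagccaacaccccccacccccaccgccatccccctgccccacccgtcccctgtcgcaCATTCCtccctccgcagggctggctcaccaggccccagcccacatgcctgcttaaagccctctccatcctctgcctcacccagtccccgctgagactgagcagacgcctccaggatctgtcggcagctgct
TNNT1: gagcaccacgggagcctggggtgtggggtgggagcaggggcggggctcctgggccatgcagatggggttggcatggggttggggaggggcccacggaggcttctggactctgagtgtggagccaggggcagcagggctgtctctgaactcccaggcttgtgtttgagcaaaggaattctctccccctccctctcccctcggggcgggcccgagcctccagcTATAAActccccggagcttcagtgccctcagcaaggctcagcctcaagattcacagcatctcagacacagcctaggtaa
ACTC1: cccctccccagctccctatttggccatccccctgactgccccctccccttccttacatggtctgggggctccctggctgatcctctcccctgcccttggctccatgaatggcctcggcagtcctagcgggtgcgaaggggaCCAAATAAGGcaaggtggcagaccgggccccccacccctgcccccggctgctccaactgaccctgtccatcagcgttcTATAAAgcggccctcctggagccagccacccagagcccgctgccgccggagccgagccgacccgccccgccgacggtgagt
ACTA1: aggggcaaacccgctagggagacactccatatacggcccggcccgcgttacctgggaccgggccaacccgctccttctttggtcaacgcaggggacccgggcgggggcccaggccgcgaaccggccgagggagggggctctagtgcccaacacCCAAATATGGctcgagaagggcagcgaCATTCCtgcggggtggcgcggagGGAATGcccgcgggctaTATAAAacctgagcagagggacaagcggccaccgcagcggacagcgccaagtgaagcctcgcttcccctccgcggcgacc
The TNNT2 window holds CATTCC from 81 to 76 bases before the start, and the TNNT1 window TATAAA from 29 to 24 bases before it. ACTC1 has the CArG box CCAAATAAGG from 109 to 100 bases before the start and TATAAA from 31 to 26. ACTA1 has the CArG box CCAAATATGG from 97 to 88 bases before the start, CATTCC from 70 to 65, its reverse complement GGAATG from 47 to 42, and TATAAA from 30 to 25. None of these matches overlap. The windows of TNNI3 and TPM1 hold none of the 4 motifs, and no window of the 6 genes holds a MEF2 box. A match is a description of the letters only.

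Values below are CPM (each library's counts scaled to a common total), from reads of the 3′ end of each transcript, so gene length was not divided out and TPM1 isoforms with the same end were not separated. Total counts were 831062 to 3574843 per library (median 1570954), the lowest being KO cl4_R1 at day 2.5. Of 8 cardiomyocyte markers outside the 8 members, all were above 3 counts in at least 1 library of every WT and KO group at days 4.5 and 7.5, and their summed level in WT libraries was 19627 to 52684 CPM at day 4.5 and 48089 to 59029 CPM at day 7.5. The marker list shares MYH6, MYH7, MYL7, MYL4 and TTN with the thick filament and titin list used below, so the 2 are not separate observations. MYL2, the ventricular regulatory light chain, had at most 2 counts in any WT or KO library, and at most 9 in the enzyme arm. No difference in HAS2 counts by label passed at any day (edgeR quasi-likelihood, adjusted p 0.937, 0.77, 0.992 and 1), and 3′ counts do not check a knockout of the coding sequence. Reads of PCR copies are not independent molecules, so a floor of 3 counts, used below for genes at or near 0, covers counting error only.

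Between days 2.5 and 4.5 the thin filament genes rose steeply in WT cardioids: 7 of the 8 members rose, against 18.6% of the 13797 genes tested, and TNNT1 fell, against 15.9%. The members' median log2 fold change was 5.52, beside 0.03 over all genes tested. TNNT2 rose from 0.308 to 9.34 CPM (median 3.18) at day 2.5 to 3505 to 6586 CPM (median 5203) at day 4.5. The day 2.5 and day 4.5 libraries were far apart (log2 fold change 10.27 with SE 0.50, adjusted p 1.09e-18 by edgeR's quasi-likelihood test). TNNI1 rose by 6.90 on the log2 scale, TNNC1 by 6.31, TNNI3 by 4.64, TPM1 by 4.18, ACTC1 by 4.85 and ACTA1 by 6.19, each with an edgeR adjusted p of 3.05e-06 or less. TNNT1 ran the other way, from 45.9 to 62.4 CPM (median 52.2) at day 2.5 to 0.625 to 16.2 CPM (median 6.11) at day 4.5 (log2 fold change -3.02, SE 0.38, edgeR adjusted p 3.19e-08). Every one of these calls held in all 17 alternatives. In bulk RNA of pooled cardioids, more cells of a type and more RNA per cell cannot be told apart.

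The earlier step from day 1.5 to day 2.5 was smaller and mixed. In WT 5 members rose (15% of all genes tested did) and 1 fell (15.1% did). TNNI1 had no count in any of the 5 day 1.5 libraries and 13.3 to 47.4 CPM (median 19.7) at day 2.5, at least 18.2-fold higher (edgeR adjusted p 3.83e-10). ACTC1, already present at day 1.5 with 26.0, 56.9, 22.5, 9.74 and 48.1 CPM, rose by 1.90 on the log2 scale (SE 0.43, edgeR adjusted p 0.000614) to 86.3 to 274 CPM (median 109). TNNC1 was at least 3.92-fold higher (edgeR adjusted p 0.0085) and TNNT1 rose by 1.10 on the log2 scale (adjusted p 0.0168), from 16.5, 23.2, 23.5, 22.0 and 22.7 CPM. TNNT2 rose by 1.96 on the log2 scale (SE 0.61, edgeR adjusted p 0.0126), and ACTA1 fell by 3.01 (adjusted p 0.0162). Both of the latter rest on few counts: the TNNT2 call was lost without WT_R1 at day 1.5 or TNT2 at day 2.5 (edgeR adjusted p up to 0.0613), and the ACTA1 call without WT_TU_R1 at day 1.5, whose 9.03 CPM compare with at most 3.13 CPM in the other 4 libraries, or with no filter on low counts (up to 0.162). TPM1 was present at 115, 130.3, 239, 269.6 and 311 CPM at day 1.5 and 118 to 609.8 CPM (median 373) at day 2.5, a difference that did not pass (edgeR adjusted p 0.106) but did in 2 of 16 alternatives.

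In KO cardioids the day 2.5 to 4.5 step had the same directions. The same 7 members rose in KO (15.6% of all genes tested) and TNNT1 fell (14.9%), with all 8 calls holding in every alternative in which the gene was tested. TNNT2 was at or under 3 counts in all 6 KO libraries at day 2.5 and at least 1611-fold higher at day 4.5 (edgeR adjusted p 1.34e-19). ACTA1 was at least 8.25-fold higher (edgeR adjusted p 2.6e-05), and the log2 fold change was 7.04 for TNNI1, 5.27 for ACTC1, 5.07 for TNNC1, 4.88 for TPM1, 3.58 for TNNI3 and -4.40 for TNNT1. Between days 4.5 and 7.5, 0 members passed in WT by the edgeR test (2.7% of genes tested did), though 1 did so at an unadjusted p under 0.05 (TNNC1, 0.0177). In KO 3 members rose between these days, against 3.21% of genes tested: TNNC1 (log2 fold change 2.34, edgeR adjusted p 0.00132), TNNI3 (2.54, 0.0061) and ACTC1 (1.64, 0.0169). The ACTC1 call was lost without cl4_R2 at day 7.5 and with no filter on low counts (edgeR adjusted p up to 0.0971). The TNNC1 and TNNI3 calls were lost in a fit of only the libraries compared (0.107 and 0.0666). TNNI1 did not pass (log2 fold change 0.89, edgeR adjusted p 0.162) but did in 2 of 14 alternatives. All 3 WT and 3 KO libraries at day 7.5 come from lines WT and WT_TU and clones cl4 and cl14, and cl46 and cl51 have no library at that day. At day 4.5 the cl46 and cl51 libraries were the lowest 2 of 12 in TNNC1, TNNI3 and ACTC1. The KO step thus also holds a change of clones, and its part in the 3 calls was not tested.

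**Figure D1:**
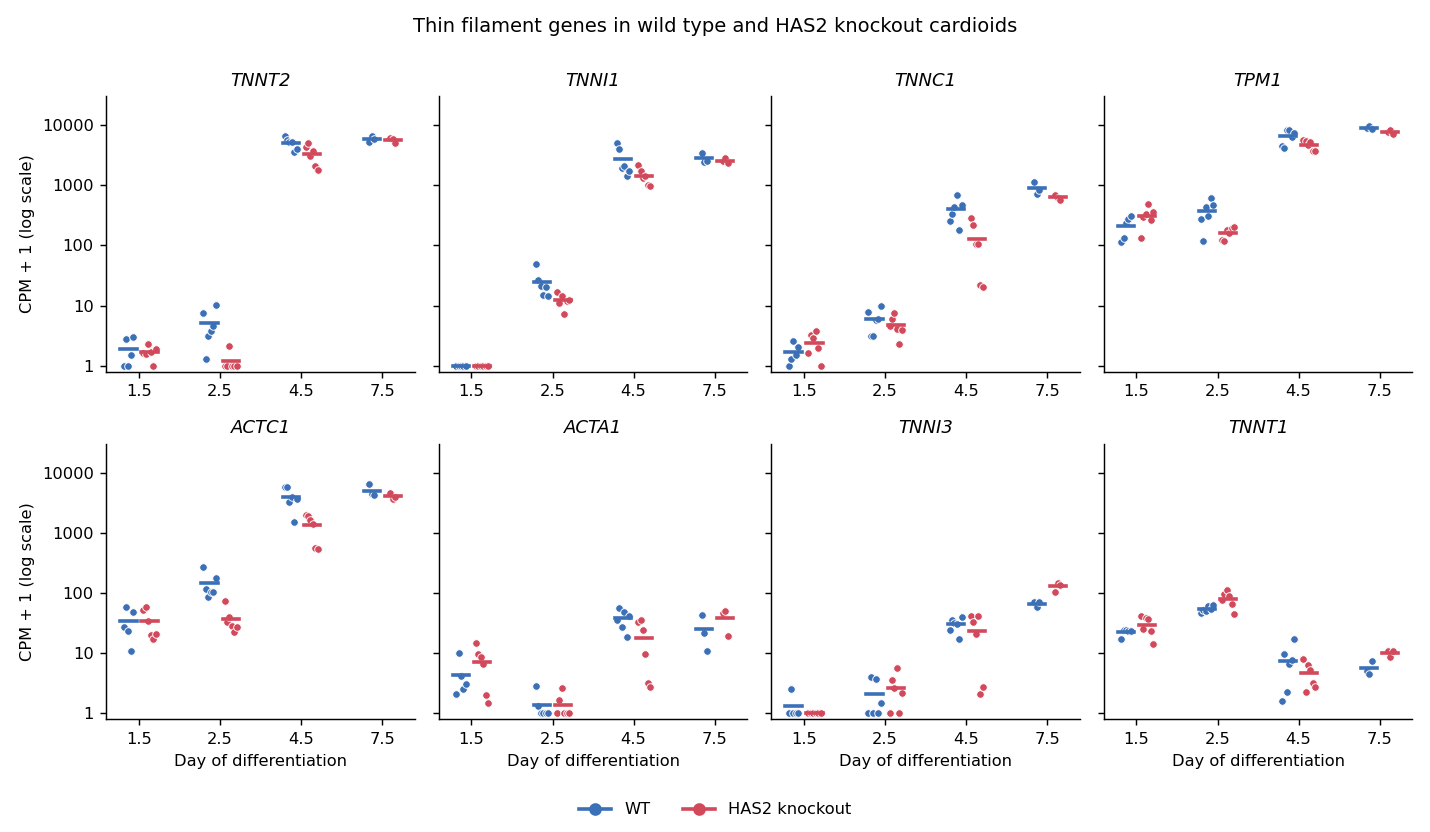
CPM + 1 (log axis) of the 8 thin filament genes by day in WT (blue) and HAS2 knockout (red) cardioids, with 1 point per library and a bar at the group mean. ACTC1 at day 2.5 shows 2 separate clouds (72.2 CPM is the highest KO and 86.3 the lowest WT library), 2 KO points lie apart at the bottom at day 4.5 in TNNC1 and ACTC1, and between days 2.5 and 4.5 TNNT1 falls while the other 7 genes rise.

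The KO effect was first seen at day 2.5, when cardiac actin, tropomyosin and cardiac troponin T were lower in KO. At day 1.5 none of the 8 members passed, and 0% of the 13797 genes tested did (edgeR quasi-likelihood, with 0 members at an unadjusted p under 0.05, and 0 members by DESeq2). At day 2.5, 3 members were lower, against 0.5% of genes tested, and none higher. ACTC1 had 86.3 to 274 CPM (median 109) in WT and 21.7 to 72.2 CPM (median 30.1) in KO. Every KO library lay below every WT library (log2 fold change -2.07, SE 0.41, edgeR adjusted p 0.00409). TPM1 had 118 to 609.8 CPM (median 373) in WT and 116 to 205 CPM (median 169) in KO (log2 fold change -1.22, SE 0.28, edgeR adjusted p 0.0155). The TPM1 groups overlapped through the library WT_TU_R1 with 118 CPM. TNNT2 had 0.308 to 9.34 CPM (median 3.18) in WT and at most 1.11 CPM in KO, where 5 of 6 libraries had no count. It was at least 2.00-fold lower in KO (edgeR adjusted p 0.00662). TNNI1 had 13.3 to 47.4 CPM (median 19.7) in WT and 6.27 to 15.6 CPM (median 11.2) in KO, which did not pass (log2 fold change -1.14, edgeR adjusted p 0.134). TNNT1 had 45.9 to 62.4 CPM (median 52.2) in WT and 44.2 to 112 CPM (median 81.3) in KO (edgeR adjusted p 0.58). Of 7 thick filament and titin genes tested, 3 were lower in KO at this day: the light chains MYL4 (log2 fold change -1.94) and MYL7 (-1.81), and MYH6, which had at most 1 count in any KO library. Of 9 cardiac transcription factors TBX5 (-2.06) was lower and none higher, and of the other cell types' markers PAX7, at most 2 counts in WT libraries, was higher. Its part in the result was not tested. Within library blocks A, B and C, the sets that the labels' library numbers form, the log2 ratio of KO to WT mean CPM at day 2.5 was -1.43, -1.55 and -2.29 for ACTC1 and -0.68, -1.68 and -1.56 for TPM1. The ACTC1 and TNNT2 calls were lost only among the 6 libraries of library block C (edgeR adjusted p 0.108 and 0.0558). The TPM1 call was lost without KO cl4_R2, without WT cl43_WT_UT or in a fit of the 12 day 2.5 libraries only (adjusted p up to 0.0813).

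At day 4.5 ACTC1 and TNNC1 were lower in KO, 2 of 8 members against 2.6% of genes tested, and no member was higher. ACTC1 had 1520 to 5859 CPM (median 3761) in WT (mean 3981 ± 1645 CPM, SD, n = 6) and 544 to 1949 CPM (median 1541) in KO (mean 1334 ± 630.2 CPM, SD, n = 6). All 6 KO libraries lay below 5 of the 6 WT libraries, the exception being cl43_WT_UT with 1520 CPM (log2 fold change -1.65, SE 0.39, edgeR adjusted p 0.00969). TNNC1 had 182 to 686 CPM (median 388) in WT and 19.7 to 289 CPM (median 106) in KO, with overlap (log2 fold change -1.68, SE 0.43, edgeR adjusted p 0.0176). TNNI1 had 1405 to 5089 CPM (median 2031) in WT and 972 to 2181 CPM (median 1378) in KO, and its difference fell just short of the threshold (log2 fold change -1.0, SE 0.30, edgeR adjusted p 0.0577, passing in 6 of 19 alternatives). TNNT2 had 3505 to 6586 CPM (median 5203) in WT and 1806 to 5108 CPM (median 3366) in KO (log2 fold change -0.66, edgeR adjusted p 0.256). ACTA1 had 17.8 to 55.1 CPM (median 37.3) and 1.74 to 34.8 CPM (median 16) (log2 fold change -1.16, edgeR adjusted p 0.257). TPM1 had 4178 to 8372 CPM (median 6918) in WT and 3642 to 5602 CPM (median 4962) in KO (edgeR adjusted p 0.284), and TNNI3 16.5 to 38.7 CPM (median 30.7) and 1.08 to 40.6 CPM (median 26.0) (adjusted p 0.694). The members' median log2 fold change was -0.92, beside -0.03 over all genes tested, and together the 8 genes took 1.87% ± 0.319 of counts in WT and 1.10% ± 0.324 in KO (SD, n = 6 each).

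The 2 KO libraries from clones cl46 and cl51 stood apart at day 4.5. Each was among the lowest 2 of the 12 libraries in 7 of the 8 members, TNNT1 being the exception. TNNC1 was at 21.0 and 19.7 CPM in them, against 106 to 289 CPM in the 4 libraries of cl4 and cl14. TNNI3 was at 1.08 and 1.74 CPM (2 and 3 counts), against 20.2 to 40.6 CPM in the other 4. With the KO libraries of cl4 and cl14 alone, a comparison added after the values were seen, no member passed at day 4.5: the log2 fold change was -1.24 for ACTC1 (edgeR adjusted p 0.170) and -1.14 for TNNC1 (0.165). At day 2.5 the same 3 members passed with cl4 and cl14 alone (edgeR adjusted p 0.0484 for TNNT2, 0.0319 for TPM1 and 0.0273 for ACTC1). Leaving out single libraries, ACTC1 passed at day 4.5 in all 12 cases, and TNNC1 in 10, the losses being without WT_TU_R2 and without cl51_R1.

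The day 4.5 KO effect was also read within each of the 3 library blocks. The log2 ratio of KO to WT mean CPM was -1.58, -0.93 and -1.29 in blocks A, B and C for ACTC1, and -0.01, -1.39 and -2.38 for TNNC1. In block A the single KO library of TNNC1 (289 CPM) thus lay between both WT libraries (250 and 333 CPM), while ACTC1 was lower in KO in every block. In a fit of block C alone no member passed (ACTC1 edgeR adjusted p 0.320).

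Other genes moved with ACTC1 and TNNC1 at day 4.5, when the 8 cardiomyocyte markers summed to 13706 to 36509 CPM in KO. Of 7 thick filament and titin genes tested, 4 were lower in KO: the light chains MYL7 (log2 fold change -3.45) and MYL3 (-3.30), the heavy chain MYH7 (-1.5) and the myosin-binding protein MYBPC3 (-1.34). Of 10 further thin filament genes tested, TNNC2, the fast skeletal troponin C (-1.72), and TMOD1, which caps the pointed end of actin filaments (-1.40), were lower and none higher. Of the 3 non-sarcomeric actins tested, ACTA2, smooth muscle α-actin (-1.62), was lower. Of 4 smooth muscle markers TAGLN (-3.56) and CNN1 (-1.46) were lower, and the 4 genes summed to 263 to 577 CPM in WT and 86.2 to 217 CPM in KO. CKM, the muscle creatine kinase of the skeletal list (-2.27), was lower. Of 5 pluripotency markers NANOG and ZFP42 were higher in KO, both at 0 or 1 count in WT libraries and at most 6 in KO, the 5 summing to 14.4 to 44.8 CPM in WT and 34.0 to 65.5 CPM in KO. Their part in the result was not tested. Among 9 cardiac transcription factors ISL1 (1.40), MEF2C (0.96) and HAND2 (0.89) were higher and HAND1 (-1.41) lower.

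At day 7.5 no member passed between KO and WT, while 0.348% of genes tested did (edgeR quasi-likelihood, adjusted p 1 for all 8, with 0 members at an unadjusted p under 0.05 and 0 by DESeq2). TNNT2 had 5167, 6698 and 5888 CPM in WT and 5994, 5817 and 4959 CPM in KO, overlapping, with an approximate 95% interval of the log2 fold change from -1.01 to 0.78. ACTC1 had 6427, 4380 and 4276 CPM in WT and 4662, 3602 and 3883 CPM in KO (interval -1.40 to 0.69). TNNC1 had 1141, 717 and 819 CPM in WT and 688, 619.9 and 575 CPM in KO, all 3 KO libraries lying below all 3 WT libraries (log2 fold change -0.55, interval -1.69 to 0.59). TPM1 was likewise lower in every KO library (7619, 8392 and 7089.8 CPM against 8943, 9540.3 and 8529.8 CPM, log2 fold change -0.26, interval -1.01 to 0.49). TNNI3 ran the other way, with 68.8, 57.2 and 70.5 CPM in WT and 102, 147 and 137 CPM in KO. Every KO library exceeded every WT library (log2 fold change 0.93, interval -0.47 to 2.33), and the difference passed only in a fit of these 6 libraries (edgeR adjusted p 0.00939). TNNT1 was also higher in every KO library, at low levels (4.11, 3.49 and 6.47 CPM in WT and 9.76, 7.48 and 9.96 CPM in KO, log2 fold change 0.90, interval -0.28 to 2.09). TNNI1 (3483, 2425 and 2560.5 CPM in WT, 2533, 2828 and 2375 CPM in KO) and ACTA1 (42.1, 20.2 and 9.70 and 44.9, 48.9 and 18.6 CPM) overlapped. The day 7.5 interval of TNNC1 holds its day 4.5 value of -1.68, and that of ACTC1 ends short of its day 4.5 value of -1.65. No member passed the test of a difference in KO effect between the days (0.159% of genes tested passed, and 1 member, TNNT1, had an unadjusted p under 0.05, 0.0255). The 2 days differ in clones, since cl46 and cl51 are in the day 4.5 group and not in the day 7.5 group. At day 7.5 only library block B holds both genotypes (2 WT and 1 KO library). There the log2 ratio of KO to WT mean CPM was -0.16 for TNNC1, -0.25 for TPM1, 0.67 for TNNI3 and 0.97 for TNNT1. Genotype and block cannot be told apart in the other libraries of that day.

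In the enzyme arm the step of untreated cardioids from day 2.5 to 4.5 had the same directions as in WT: 7 members rose (12% of 12748 genes tested did) and TNNT1 fell (11.1% did). TNNT2 rose from 5.11, 8.94 and 11.8 CPM to 4778, 2828 and 2303 CPM in lines TNNI1, WT and TNNT2 (log2 fold change 8.46, edgeR adjusted p 1.27e-07). The other rises were 5.43 on the log2 scale for TNNI1, 4.68 for TNNC1, 3.43 for ACTC1, 2.94 for TPM1 and 3.31 for TNNI3, with ACTA1 at least 15.1-fold higher, while TNNT1 fell by 3.36 (log2 fold change -5.49 without day 4.5 replicate 1). The TNNT1 call was lost with no filter on low counts, without day 2.5 replicate 3 or without day 4.5 replicate 2 or 3 (edgeR adjusted p up to 0.0762). The TNNI3 call was lost with no filter, without any day 2.5 replicate or without day 4.5 replicate 1 (up to 0.277). Between days 4.5 and 7.5 no member passed in untreated cardioids, against 6.39% of genes tested, with 4 members at an unadjusted p under 0.05 and 1 passing by DESeq2. With line as a block TNNC1 passed (log2 fold change 1.71, edgeR adjusted p 0.0351).

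With HAse from day 1.5, ACTC1, ACTA1, TPM1, TNNC1 and TNNT2 were each lower than in untreated cardioids at 1 or more of the days, and the members' median log2 fold change was -1.60, -2.57 and -1.55 at days 2.5, 4.5 and 7.5. At day 2.5 ACTC1 and TPM1 were lower, 2 of 8 members against 0.894% of genes tested. ACTC1 had 134, 145 and 386 CPM in untreated lines TNNI1, WT and TNNT2 and 8.92, 33.6 and 30.6 CPM with HAse1.5, without overlap (log2 fold change -3.23, SE 0.60, edgeR adjusted p 0.00605). TPM1 had 337, 853 and 864 CPM in untreated and 108, 312 and 126 CPM in HAse1.5 libraries, again without overlap (log2 fold change -1.94, SE 0.41, edgeR adjusted p 0.0151). TNNT2 had 5.11, 8.94 and 11.8 CPM in untreated and 0.686, 0 and 1.25 CPM in HAse1.5 libraries, without overlap. Its mean was at least 4.08-fold lower with HAse1.5, which did not pass (edgeR adjusted p 0.251). It passed in 1 of 10 alternatives, DESeq2 (adjusted p 0.026). The ACTC1 call was lost without HAse1.5 replicate 1 or in a fit of the 6 libraries alone (edgeR adjusted p up to 0.0606), and the TPM1 call in 5 of 11 alternatives (up to 0.191), 4 of them without 1 library (HAse1.5 replicate 1 or 3, untreated replicate 2 or 3).

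At day 4.5, 4 of 8 members (TNNC1, ACTC1, TNNT2 and ACTA1) were lower with HAse1.5, against 2.41% of genes tested, and none was higher. TNNC1, the calcium sensor, had 679, 185 and 172 CPM in untreated lines TNNI1, WT and TNNT2 and 7.45, 16.4 and 11.1 CPM with HAse1.5. The groups were far apart (log2 fold change -5.01, SE 0.69, edgeR adjusted p 0.000349), and the call held in all 11 alternatives. ACTC1 had 3842, 2017 and 2003 CPM untreated and 129, 583 and 223 CPM with HAse1.5, without overlap (log2 fold change -3.16, SE 0.55, edgeR adjusted p 0.00231). This call was lost only in a fit of the 6 libraries alone (0.0989). TNNT2 had 4778, 2828 and 2303 CPM untreated and 237, 1866 and 544 CPM with HAse1.5, without overlap (log2 fold change -1.98, SE 0.49, edgeR adjusted p 0.0277). ACTA1 had 64.8, 12.4 and 11.8 CPM untreated and at most 3 counts with HAse1.5 (0.621, 2.59 and 0 CPM). The group mean was at least 14.4-fold lower (edgeR adjusted p 0.0368), a bound raised by the untreated library with 64.8 CPM. In lines TNNI1, WT and TNNT2 the HAse1.5 value was 0.957%, 20.9% and 0% of untreated. The TNNT2 call was lost in 5 and the ACTA1 call in 6 of 11 alternatives. For TNNT2, 3 of these left out 1 library (untreated replicate 1, HAse1.5 replicate 1 or 3), and for ACTA1 4 did (untreated replicate 1, any HAse1.5 replicate), with edgeR adjusted p up to 0.383 and 0.237. Leaving out 1 library gave TNNT2 log2 fold changes from -3.18 to -1.53, the former without HAse1.5 replicate 2 (edgeR adjusted p 5.33e-05).

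TPM1 and TNNI3 were also lower in every line at day 4.5. TPM1 had 6453, 5480.3 and 5344 CPM untreated and 1254, 3509.8 and 2381 CPM with HAse1.5, without overlap (log2 fold change -1.35, edgeR adjusted p 0.0611). TNNI3 had 79.8, 7.99 and 21.6 CPM untreated and 3.72, 1.73 and 5.24 CPM with HAse1.5 (log2 fold change -3.38, edgeR adjusted p 0.124). With line as a block, which pairs libraries of the same line, both passed (TPM1 edgeR adjusted p 0.0375, TNNI3 0.0129), giving 6 members lower. TNNI1 had 1503, 1085 and 1072 CPM untreated and 229, 1203 and 613 CPM with HAse1.5, overlapping through line WT (edgeR adjusted p 0.402). TNNT1 was higher in 3 of 3 lines (17.1, 0.888 and 2.09 CPM untreated, 42.2, 1.73 and 13.4 CPM with HAse1.5), though the groups overlapped (edgeR adjusted p 0.646). Over all genes tested the median log2 fold change was 0.02, and the 8 members together took 1.33% ± 0.356 of counts untreated and 0.429% ± 0.268 with HAse1.5 (SD, n = 3 each).

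**Figure D2:**
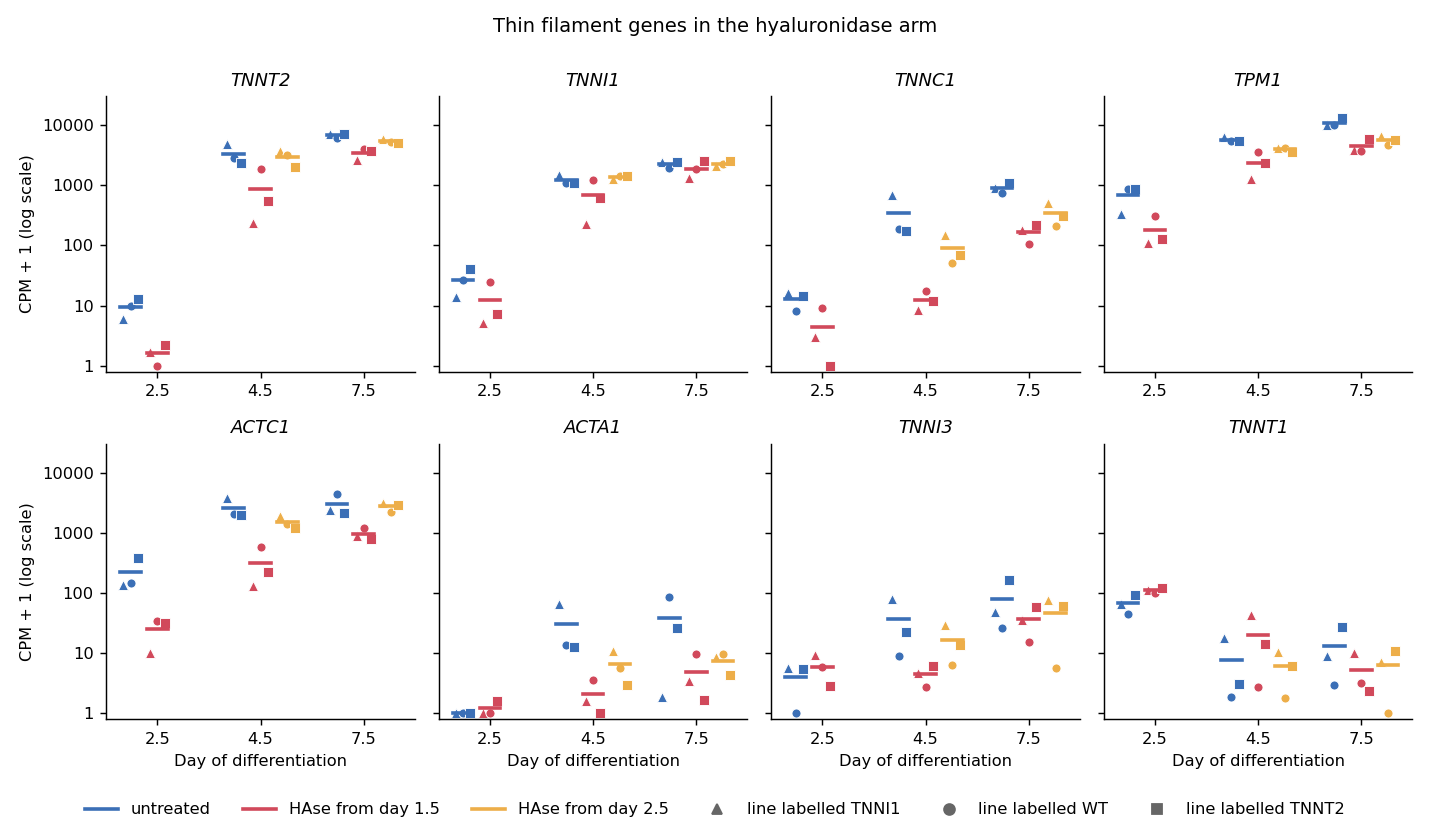
CPM + 1 (log axis) of the 8 genes by day in untreated (blue), HAse1.5 (red) and HAse2.5 (yellow) cardioids, with 1 symbol per line and a bar at the group mean. TNNC1 at day 4.5 separates the 3 groups, the 3 HAse1.5 libraries lying between 7.45 and 16.4 CPM, below all HAse2.5 libraries (50.0 to 147 CPM) and all untreated ones (172 to 679 CPM).

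Other sarcomere genes were lower beside the members. The 8 cardiomyocyte markers, which overlap the thick filament and titin list, summed to 21167 to 41391 CPM untreated and 4823 to 16731 CPM with HAse1.5. All 7 thick filament and titin genes tested were lower with HAse1.5 at day 4.5, from MYL3 (log2 fold change -7.32) and MYL7 (-6.78) to MYL4 (-2.74) and TTN, the titin spring (-1.29). Of 10 further thin filament genes, 4 were lower: FHOD3, a formin of cardiac actin assembly (-1.58), TMOD1 (-1.13), TPM2 (-1.09) and NEBL (-0.92). ACTA2 was lower as well (-4.41). Of 3 smooth muscle markers tested TAGLN (-3.51) and CNN1 (-2.51) were lower, the list summing to 211 to 332 CPM untreated and 41.9 to 76.9 CPM with HAse1.5. CKM (-4.62), APOA1 of the endoderm list (-2.52) and WT1 of the epicardial list (no count in any HAse1.5 library) were lower too, and their part in the result was not tested. Pluripotency markers summed to 39.1 to 68.2 CPM untreated and 81.2 to 94.3 CPM with HAse1.5, with none of the 3 tested passing. ISL1 (2.07) and HAND2 (2.03) were higher and TBX5 (-1.66) lower.

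At day 7.5 TNNC1 and TPM1 were lower with HAse1.5, 2 of 8 members against 1.92% of genes tested. TNNC1 had 884, 743 and 1089.8 CPM untreated and 180.1, 104 and 219.6 CPM with HAse1.5, without overlap (log2 fold change -2.55, SE 0.57, edgeR adjusted p 0.016). TPM1 had 9880.3, 10006 and 13186 CPM untreated and 3828, 3659 and 5771 CPM with HAse1.5, without overlap (log2 fold change -1.43, SE 0.39, edgeR adjusted p 0.046). ACTC1 had 2355, 4479.9 and 2148 CPM untreated and 875, 1186 and 788 CPM with HAse1.5, also without overlap, but did not pass (log2 fold change -1.76, edgeR adjusted p 0.07). TNNT2 was lower in every line (7240, 6067 and 7189 CPM untreated, 2676, 3997 and 3774 CPM with HAse1.5, log2 fold change -1.09, edgeR adjusted p 0.253). TNNI1 overlapped between the groups, with 2403, 1916 and 2433 CPM untreated and 1306, 1839 and 2522 CPM with HAse1.5 (edgeR adjusted p 0.754). The TNNC1 call was lost without HAse1.5 replicate 1 or 2 or untreated replicate 3 (edgeR adjusted p up to 0.0897), and the TPM1 call without any 1 of the 6 libraries or with no filter on low counts (up to 0.203). ACTA1 spread widely among untreated libraries (0.892, 84.2 and 25.2 CPM), and had 2.45, 8.63 and 0.697 CPM with HAse1.5 (edgeR adjusted p 0.0979). Of the further genes, LMOD2, a leiomodin of thin filament length (-2.81), TPM2 (-1.28) and CAP2 (-1.01) were lower among 10 thin filament genes, and MYL7 (-3.22) and MYH7 (-2.89) among 7 thick filament genes. The 8 cardiomyocyte markers summed to 54928 to 64410 CPM untreated and 27311 to 29375 CPM with HAse1.5, the 4 smooth muscle markers to 261 to 613 CPM and 90.5 to 155 CPM, and the 6 endoderm markers to 98.9 to 420.3 CPM and 43.1 to 79.5 CPM. TAGLN (-3.65), CNN1 (-1.80), CKM (-2.40) and the endoderm genes APOB (-4.62) and AFP (no count with HAse1.5) were lower, and their part in the result was not tested. For no member did the difference in HAse1.5 effect between days 4.5 and 7.5 pass (0.0157% of genes tested passed, and 1 member, TNNC1, had an unadjusted p of 0.01).

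When HAse was started 1 day later, no member passed at day 4.5 (0.22% of genes tested did) or at day 7.5 (0.659% did), by edgeR or by DESeq2. At an unadjusted p under 0.05 there were 2 members at day 4.5 and 3 at day 7.5. TNNC1 was at 147, 50.0 and 67.3 CPM at day 4.5, against the untreated values given above (log2 fold change -2.01, SE 0.57, edgeR adjusted p 0.216). All 3 treated libraries lay below all 3 untreated ones, at 21.7%, 27.0% and 39.2% of the same line's untreated value. At day 7.5 it had 504, 208 and 312 CPM, again below all untreated libraries (log2 fold change -1.46, SE 0.54, edgeR adjusted p 0.262). TPM1 had 6561, 4713 and 5683 CPM at day 7.5, below all untreated libraries (edgeR adjusted p 0.266). TNNT2 (3780.2, 3191 and 2039 CPM) and TNNI1 (1284, 1428 and 1412 CPM) overlapped the untreated libraries at day 4.5. Among the marker lists TAGLN was lower at day 4.5 (-2.58), and MYH7 (-2.37), AFP and APOB at day 7.5, the latter pair at 3 counts or fewer with HAse2.5.

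Set against each other, HAse1.5 and HAse2.5 gave no member that passed at day 4.5 (0.361% of genes tested did), with 4 members at an unadjusted p under 0.05 and 2 passing by DESeq2. ACTC1 had 129, 583 and 223 CPM with HAse1.5 and 1921, 1386 and 1192 CPM with HAse2.5, without overlap (log2 fold change -2.31, SE 0.53, edgeR adjusted p 0.0638). TNNC1, also without overlap, stood at a log2 fold change of -3.00 with SE 0.68 (edgeR adjusted p 0.0638), and passed with line as a block (0.0384). Without the HAse1.5 library of line WT (replicate 2), TNNC1, ACTC1 and TNNT2 passed (edgeR adjusted p 0.0473, 0.00386 and 0.000223). At day 7.5 no member passed (0.00784% of genes tested did), with 1 member, ACTC1, at an unadjusted p under 0.05 (875, 1186 and 788 CPM with HAse1.5, 3115, 2251 and 2855 CPM with HAse2.5). The difference in HAse2.5 effect between days 4.5 and 7.5 passed for no member (0% of genes tested passed, with 0 members at an unadjusted p under 0.05 and 0 by DESeq2).

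**Figure D3:**
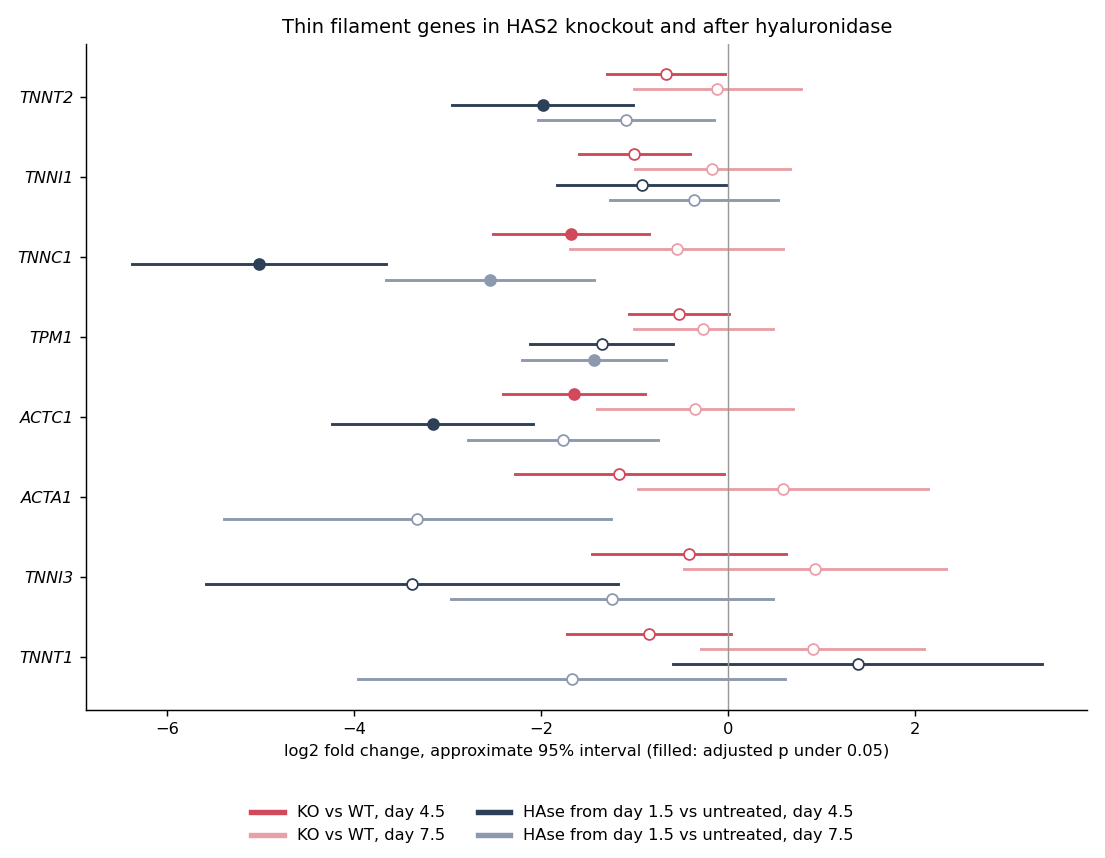
Log2 fold changes of the 8 genes with approximate 95% intervals, for KO against WT (reds) and HAse1.5 against untreated (blues) at days 4.5 and 7.5, filled where the edgeR adjusted p is under 0.05. ACTC1 and TNNC1 are filled in both arms at day 4.5, no KO point is filled at day 7.5, and ACTA1 with HAse1.5 at day 4.5 is left out because that group is at the floor.

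The depth of the effect differed between lines at day 4.5, and it was deepest in the line labelled TNNI1. There HAse1.5 left 1.10% of the untreated TNNC1 value, 3.36% of ACTC1, 4.96% of TNNT2, 15.2% of TNNI1 and 19.4% of TPM1. In the line labelled TNNT2 the values were 6.44%, 11.1%, 23.6%, 57.2% and 44.6%, and in the line labelled WT 8.89%, 28.9%, 66.0%, 111% and 64.0%. The same untreated library is the base of all percents of a line. The order of lines was the same for these 5 genes, and the gene after which a line is named was not the one left lowest in it. The line labelled TNNI1 also had the highest untreated value of TNNT2, TNNI1, TNNC1, TPM1 and ACTC1 at day 4.5. By day 7.5 the lines lay closer together: TNNC1 was at 20.4%, 13.9% and 20.1% of untreated in lines TNNI1, WT and TNNT2, TPM1 at 38.7%, 36.6% and 43.8%, and ACTC1 at 37.2%, 26.5% and 36.7%. With 1 library per line and group, these differences between lines have no replicate check.

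**Figure D4:**
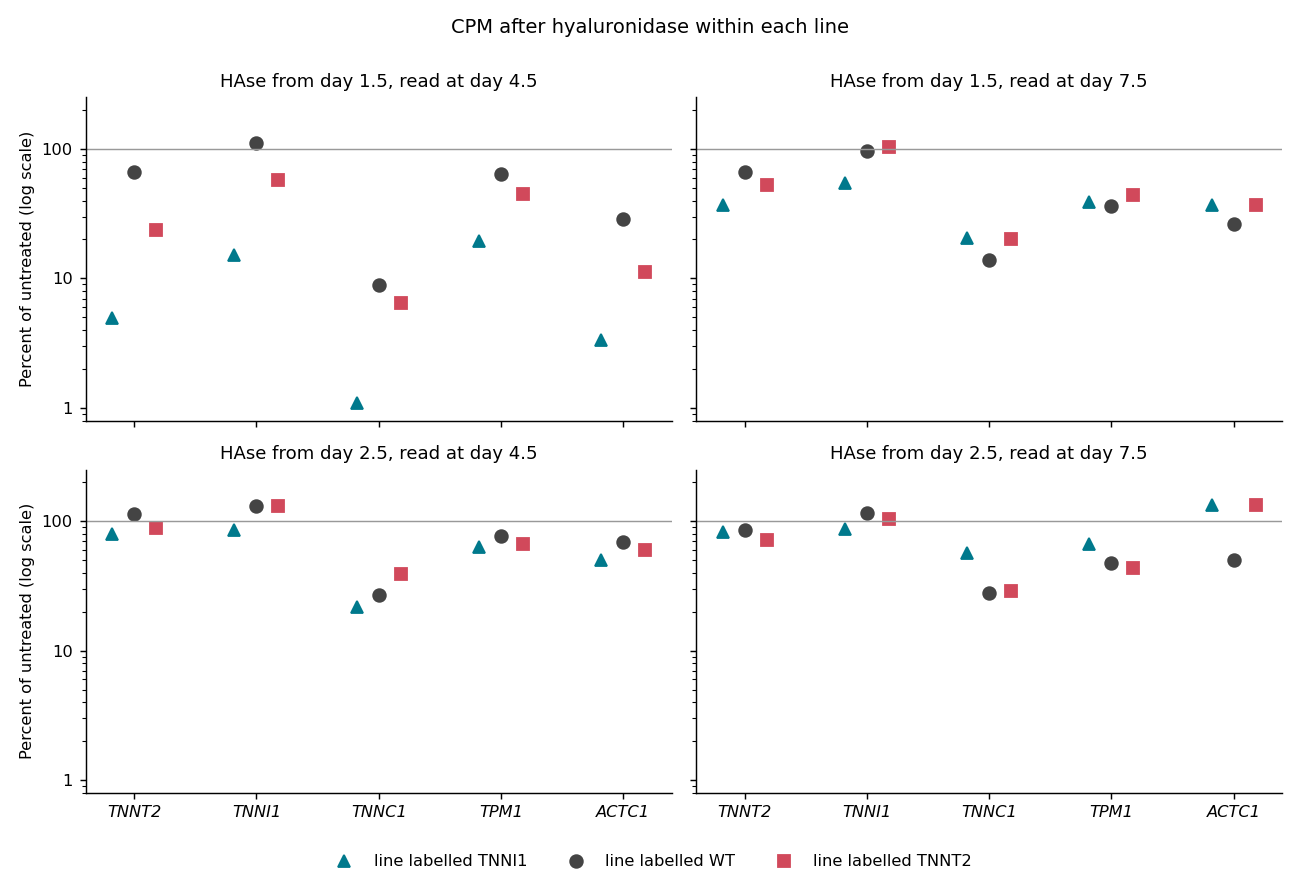
CPM after HAse as a percent of the untreated library of the same line and day (log axis), for 5 genes, with 1 symbol per line and a line at 100%. With HAse from day 1.5 at day 4.5 the line labelled TNNI1 is lowest in all 5 genes (1.10% for TNNC1), while at day 7.5 the 3 lines lie between 13.9% and 20.4% for TNNC1.

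Over all 24 enzyme-arm libraries, with the group in the model, TNNI1 was 0.46 lower on the log2 scale in the line labelled TNNI1 than in the other 2 lines (log2 fold change -0.46, SE 0.26, edgeR adjusted p 0.549). It was the lowest of the 3 lines in 6 of 8 groups. With the filter on low counts none of the 8 members passed in that line, against 1.81% of genes tested. With no filter the TNNI1 value was the same but passed (-0.46, edgeR adjusted p 0.00075). TNNI3 was then higher in that line (log2 fold change 1.25, edgeR adjusted p 1.55e-06), and DESeq2 called it too. In the line labelled TNNT2, the TNNT2 log2 fold change was -0.26, SE 0.30 (edgeR adjusted p 0.791), and the gene was the lowest of the lines in 3 of 8 groups, and no member passed there, against 0.416% of genes tested. With no filter on low counts TNNI3 passed there (log2 fold change 0.95, edgeR adjusted p 0.00174). The member that passed between lines with the filter was TNNI3, which was lower in the line labelled WT (log2 fold change -2.20, SE 0.41, edgeR adjusted p 0.00695, 1 of 8 members against 0.353% of genes tested). It was lowest there in 7 of 8 groups, for example 24.9 CPM against 46.4 and 162 CPM in untreated day 7.5 libraries, and it passed in all 4 alternatives. TNNT1 was lowest in that line in 7 of 8 groups too, without passing (edgeR adjusted p 0.139).

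To ask whether knockout and enzyme acted to the same extent, both effects entered a single fit of all 65 libraries. At day 4.5 the TNNC1 effect was larger with the enzyme, the test passing for 1 of 8 members against 0.249% of 14047 genes tested. The KO effect minus the HAse1.5 effect was 3.34 on the log2 scale (SE 0.79, edgeR adjusted p 0.0404). It passed in all 4 alternatives run for it, none of which left out a library. The difference was 1.54 for ACTC1 (edgeR adjusted p 0.567) and 1.35 for TNNT2 (0.548), and did not pass. At day 7.5 no member passed (0.0925% of genes tested did), with 4 members at an unadjusted p under 0.05 and 0 by DESeq2. With no filter on low counts, 5 members passed at day 4.5 and 3 at day 7.5. The percents of genes tested above belong to the filtered fit, so these 2 counts have no background beside them. ACTA1 passed at day 7.5 once line and library block were in the fit (log2 difference 4.98, edgeR adjusted p 0.0392). The arms differ in lines and in library numbers, and arm and condition cannot be told apart for a level set across them.

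The isoform pairs were read as shares of counts. TNNT1 made up 91.7% to 100% of TNNT1 and TNNT2 counts in WT libraries at day 1.5 and 87.0% to 99.4% at day 2.5, and 0.00949% to 0.402% at day 4.5. Untreated libraries at day 2.5 had 83.1% to 92.6%, and HAse1.5 libraries 99% to 100%. At day 4.5 the HAse1.5 libraries still held 15.1%, 0.0926% and 2.40% TNNT1 in lines TNNI1, WT and TNNT2, against 0.356%, 0.0314% and 0.0905% untreated. The share was higher in 3 of 3 lines, but the groups overlapped (two-sided exact permutation test p = 0.2, adjusted 0.6 over 18 share tests, smallest possible 0.1). TNNI3 made up little of troponin I everywhere from day 4.5 on. It had 2.31% ± 0.371 of TNNI1 and TNNI3 counts in WT and 4.74% ± 0.812 in KO at day 7.5 (SD, n = 3 each), every KO library above every WT library (exact permutation p = 0.1, the smallest possible, adjusted 0.45). ACTA1 made up 0.961% ± 0.230 of ACTC1 and ACTA1 counts in WT and 1.02% ± 0.665 in KO at day 4.5 (SD, n = 6 each, exact permutation p = 0.846). None of the 18 share tests passed after adjustment. Only those of KO against WT at day 4.5 could have, since with 3 libraries a group the smallest possible exact permutation p is 0.1.

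Across the 16 group means of log2 CPM, 7 of the members correlated positively with each other, and TNNT1 negatively with all of them. Single steps differed: in WT from day 1.5 to 2.5 TNNT1 rose with TNNT2, TNNI1, TNNC1 and ACTC1, while ACTA1 fell. Pearson's r was 0.99 between TNNT2 and TPM1, -0.91 between TNNT2 and TNNT1, and 0.656 to 0.808 between ACTA1 and the 6 others apart from TNNT1. These are descriptions over group means that share days and libraries. Among 12558 further genes, the pattern most like TNNT2 was that of UNC45B, a myosin chaperone (r = 0.997), followed by the cardiac myosin MYH6 (0.996). TPM1 was closest to RYR2, the calcium release channel (0.993), and TNNC1 to the light chain MYL3 and the fatty acid carrier FABP3 (0.987 each). TNNI1 was closest to ENO3, muscle enolase, and PPP1R1A (0.990 each), ACTC1 to ACSL1 (0.985) and PARVA (0.98), and TNNI3 to ENSG00000258461 (0.976) and CES4A (0.975). ACTA1 was closest to PCGF5 (0.950) and PPP1R14C (0.941).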

How the data were processed

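Left-ventricular cardioids from 65 samples were profiled by 3′ tag RNA sequencing, 8 cardioids pooled per library. The authors counted reads per gene with featureCounts (Subread 1.6.2) against GRCh38 (hg38), per the submitters' processing notes, and the deposited table holds whole-number counts of 58735 genes, 58207 of them matched to a gene symbol. The aligner is not given in the sources used here. Another 4 columns matched no sample and were not used.

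The genes described and the gene lists beside them were chosen with earlier results of these data known. Each arm was fitted as a whole in edgeR 4.0.16 (R 4.3.3): TMM scaling, filterByExpr with a minimum count of 10, robust quasi-likelihood F-tests, two-sided, Benjamini-Hochberg adjusted over 13797 genes in the genotype arm, 12748 in the enzyme arm and 14047 in the fit of both, with a threshold of 0.05. Counts per library of 831062 to 3574843 put a gene at 3 counts or fewer below what could be told from 0. Folds against such groups are lower bounds for group means, the other group's mean CPM over the mean CPM of 3 counts. They need not hold for each line or library. Each standard error (SE) was worked out from the log2 fold change and its F statistic. The 95% intervals put a normal quantile on it, so they are approximate and narrower than the F-test implies. An interval can leave out 0 where the test does not pass. For TNNI1 with HAse1.5 at day 4.5 it ran from -1.83 to -0.0076, at an unadjusted edgeR p of 0.0624. Shares were compared by exact permutation tests (scipy 1.17.1). Outside the 8 members, each list's genes were all counted, and those named are the 2 highest and 2 lowest log2 fold changes among its called genes, plus genes needed to read a count of 5 or fewer. The genes most like TNNT1 in pattern are not reported here. The fits were tested on simulated data. Percents of genes tested that stand beside a count belong to the main fits. Counts of members by DESeq2, in other alternatives or at an unadjusted p under 0.05 have no such percent beside them here.

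In the enzyme arm the replicate number is the line, so libraries of the same number come from the same line and pair across groups. Their deviations from the group means correlated above 0.1 in 15 of 21 library pairs matched by line and day (lowest r = -0.108). The main tests between groups and the share tests left this pairing out, and line entered the former only as the replicate block alternative. The alternatives were RLE size factors, no filter on low counts, DESeq2 1.42.0, a fit of only the libraries compared, a replicate block, library block C alone, each library left out in turn, and, chosen after seeing the data, KO clones cl4 and cl14 alone and the line fits of TNNI3. For the fit of both arms only RLE size factors, no filter, DESeq2 and the replicate block were run. No replicate pair agreed within sampling noise (115 pairs, chi-square per degree of freedom from 2.07 to 71.8). The labels give biological replicates without saying which share a differentiation, so p-values measure the spread between these libraries, and clone cl4 supplies up to 3 of 6 KO libraries of a day. The labels do not give each clone's edit or the enzyme's dose.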

Additional observations from a re-analysis of the deposited data

Results flagged for a closer look

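A library stood far from the rest of its group in 6 of 41 sets of 1 gene in 1 group that could be tested. The rule flags about 1 in 20 only for independent sets with a normal spread. These sets share libraries and some lie near 0 CPM, so 6 of 41 is not read as an excess. TNNT1 was at 16.5 CPM in WT_R1 at day 1.5, below the next lowest WT library with 22.0 CPM. TNNI1 was at 47.4 CPM in WT_R1 at day 2.5, above the next highest with 25.9 CPM, and ACTA1 was at 1.84 CPM in the same library, above the next highest with 0.308 CPM. The day 1.5 library of WT_TU_R1 held 1.5 CPM of TNNI3 (5 counts) while the other 4 WT libraries had none, and 9.03 CPM of ACTA1 against at most 3.13 CPM. ACTC1 was at 72.2 CPM in KO cl4_R1 at day 2.5, against at most 39.5 CPM in the other KO libraries. That library has the fewest counts of all (831062). Removing WT_TU_R1 at day 1.5 ended the ACTA1 call between days 1.5 and 2.5, and removing cl4_R1 left the ACTC1 call at day 2.5 in place.

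The TNNC1 effect differed between knockout and enzyme at day 4.5. The KO effect minus the HAse1.5 effect was 3.34 on the log2 scale by an interaction term in edgeR (adjusted p 0.0404), with all 3 lines lower after HAse1.5 and overlapping groups in the genotype arm.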

How the results depend on the processing

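The steps from day 2.5 to day 4.5 in WT and KO (8 members each) kept their direction and calls in every alternative in which a gene was tested. The counts of members called that moved by more than 1.5 times are given first. For KO against WT at day 2.5 (3 called), the fit of only the libraries compared gave 1 and block C alone 1. In the former the TPM1 call was lost and TNNT2 was not tested. At day 4.5 (2 called), no filter gave 1, only the libraries compared 1, block C alone 0 and clones cl4 and cl14 alone 0, and leaving out single libraries 1 to 3. At day 7.5 (0 called), only the libraries compared gave 1. That fit also gave 3 for the WT step from day 1.5 to 2.5 (6 called), where it tests fewer of the members, and 1 for the WT step from day 4.5 to 7.5 (0 called). For HAse1.5 against untreated, only the libraries compared gave 0 at day 2.5 (2 called) and 1 at day 4.5 (4 called), no filter gave 2 at day 4.5 and 1 at day 7.5 (2 called), and single libraries left out gave 0 to 2, 2 to 4 and 0 to 2 at the 3 days. For HAse1.5 against HAse2.5 at day 4.5 (0 called), DESeq2 gave 2, the line as replicate block 1 and leave-one-out 0 to 3. The untreated step from day 4.5 to 7.5 (0 called) gave 1 with DESeq2, 1 with the replicate block, 2 with only the libraries compared and 0 to 1 in leave-one-out. The difference in HAse1.5 effect between days 7.5 and 4.5 (0 called) gave 0 to 1 in leave-one-out. KO effect minus HAse1.5 effect gave 5 at day 4.5 (1 called) and 3 at day 7.5 (0 called) with no filter, and 1 at day 7.5 with the replicate block. Smaller moves included the WT step from day 1.5 to 2.5 (replicate block 7, leave-one-out 5 to 7), the KO step from day 4.5 to 7.5 (3 called; no filter 2, replicate block 4, leave-one-out 2 to 3) and the untreated step from day 2.5 to 4.5 (8 called; leave-one-out 6 to 7). Except where named, the cause was not tested.

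In the genotype arm the labels do not say what the library numbers stand for. Deviations from the group means were correlated for each pair of a KO and a WT library of the same day and block, in blocks A and B. They correlated above 0.1 in 9 of 13 such library pairs (r from -0.0725 to 0.813), not in every pair. The blocks were thus not taken as a pairing, and block C was left out of this check. With the library-number replicate block, the log2 fold change of KO against WT at day 7.5 was 0.16 for TNNT2, 0.32 for TNNI1 and 0.13 for ACTC1, each reversed in sign, where only block B holds both genotypes. The block gave 3 members at day 4.5, adding TNNI1 (edgeR adjusted p 0.0187), and left the count at day 2.5 at 3. It also made TPM1 pass in the WT step from day 1.5 to 2.5 (0.0416) and TNNI1 in the KO step from day 4.5 to 7.5 (log2 fold change 1.10, 0.000112). In the enzyme arm the line block changed the calls of TPM1 and TNNI3 (HAse1.5, day 4.5), TNNC1 (HAse1.5 against HAse2.5, day 4.5, and the untreated step from day 4.5 to 7.5) and no other member's call there. TNNI1 at day 7.5 in KO ranged from -0.28 to 0.025 in leave-one-out. TNNI1 in the line labelled TNNI1 stayed at -0.46 but passed with no filter (adjusted p 0.00075).

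Of 18 differences in isoform share, 8 changed sign when 1 library was left out and 10 did not, among them TNNI3 in KO at day 7.5 (2.09 to 2.88 percentage points) and TNNT1 with HAse1.5 at day 4.5 (1.09 to 8.60). Those that changed sign ranged, in percentage points, as follows: TNNI3 from -0.19 to 0.35 (KO, day 4.5), -2.20 to 0.28 (HAse1.5, day 7.5) and -2.09 to 0.39 (HAse2.5, day 7.5), TNNT1 from -0.061 to 0.017 (KO, day 4.5), -0.12 to 0.070 (HAse1.5, day 7.5), -0.049 to 0.11 (HAse2.5, day 4.5) and -0.14 to 0.028 (HAse2.5, day 7.5), and ACTA1 from -0.10 to 0.20 (KO, day 4.5). With 3 libraries a group, no exact test can go below 0.1, and TNNI3, TNNT1 and ACTA1 rest on few counts in many libraries.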
